A study of Mus musculus with 12 samples.

Results

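Malat1, Neat1, Meg3, Rian, Mirg, Miat, Snhg11 and Kcnq1ot1 are long noncoding RNAs that are known mainly from the cell nucleus, and their recovery in a ribosome pulldown from white matter was examined here. They were 8 of the 24060 genes in the count table, found by symbol, and all 8 passed the filter on low counts that left 14354 genes. The set was chosen by the ratio of pulldown to input in these data, so every such ratio below is a description of the members and carries no test of its own. The samples came from male Tie2-Cre:RiboTag mice, the cross of Tie2-Cre with Rpl22-HA. Fat supplied 10% of the calories in the control diet (CFD) and 60% in the high-fat diet (HFD), which served as a model of diet-induced obesity. In every mouse, controls included, Cre recombinase driven by the Tie2 (Tek) promoter puts a hemagglutinin tag on the ribosomal protein Rpl22. The Tie2 promoter is active in endothelial cells and also in some blood cells. An anti-HA immunoprecipitation (IP) and the input RNA of the same brain white matter were sequenced for each of 6 animals, numbered 489, 555 and 556 in the CFD groups and 516, 517 and 676 in the HFD groups, giving 12 libraries in 4 groups of 3. The age of these mice was not given in the sources used here.

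Most messenger RNAs leave the nucleus and are bound by ribosomes, whereas many long noncoding RNAs stay at the chromatin or in nuclear bodies and are not translated. Malat1 gathers in nuclear speckles, the bodies that store splicing factors, and Neat1 is the scaffold of paraspeckles. Meg3, Rian and Mirg are made from the maternal copy of the imprinted Dlk1-Dio3 locus, with small nucleolar RNAs (snoRNAs) inside Rian and microRNAs inside Mirg. Kcnq1ot1 is made from the paternal copy of the Kcnq1 locus and silences neighbouring genes on that chromosome. Miat forms its own nuclear domains in neurons, and Snhg11 belongs to the genes named as hosts of snoRNAs.

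Among the 8 members, 2 end in a way that sets them apart from messenger RNAs. The mature 3′ ends of Malat1 and of the long isoform of Neat1 carry no poly(A) tail. They are cut by RNase P and protected by a triple helix of an A-rich tract with a pair of U-rich motifs. For Malat1, the cut frees a small tRNA-like RNA (mascRNA) that goes to the cytoplasm. Short stretches around each motif are shown because they mark where the nuclear transcript ends, and the first 30 bases of mascRNA because they follow that end directly. All were read from RefSeq on GRCm38.p6, on the minus strand, for Malat1 at chr19:5796047-5796075, chr19:5796009-5796037 and chr19:5795982-5796001, for Neat1 at chr19:5824779-5824807, chr19:5824742-5824770 and chr19:5824708-5824727, and for mascRNA at chr19:5795952-5795981. Capitals mark the U-rich motifs TTTCTTTTC and TTTTGCTTT and the A-rich motif AAAAGCAAA, written as DNA.
Malat1, first U-rich motif: tgtaaaggttTTTCTTTTCctgagaaaac
Neat1, first U-rich motif: gccgcaggtgTTTCTTTTCctgaccgcgg
Malat1, second U-rich motif: ttttctcaggTTTTGCTTTttggcctttc
Neat1, second U-rich motif: cgcgctcaggTTTTGCTTTtcacctttgt
Malat1, A-rich end: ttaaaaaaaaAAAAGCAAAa
Neat1, A-rich end: gtgagcaggaAAAAGCAAAa
mascRNA, 5′ end: gacgctggtggctggcactcctggtttcca
Among 661427 adjoining windows of 88 bases on chromosome 19, the length from the first motif to the end of Malat1 with 4 leading bases, searched on both strands, TTTCTTTTC was present in 0.704%, TTTTGCTTT in 0.409% and AAAAGCAAA in 0.406%. The reverse complement of TTTTGCTTT shares most of its letters with AAAAGCAAA, so those searches overlap. No window of this fixed grid held all 3 motifs on 1 strand. The mascRNA had no row in the count table, and no small RNA inside Neat1 was listed.

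The gene models behind the counts decide which parts of a member were seen. Counted lengths were inferred from deposited levels scaled by gene length (FPKM), since the counting settings were not given. Malat1 (chr19:5795690-5802672) was counted over 6982 bases, a single exon. This model runs past the mature 3′ end and holds mascRNA (chr19:5795924-5795981) on the same strand, so reads from mascRNA could count as Malat1. Neat1 (chr19:5824708-5845480) was counted over 3177 bases, close to the 3185 bases of its short isoform, whereas the long isoform has 20771. If reads were counted over that length, the 3′ end of Neat1 printed above lies outside the counted model. A Neat1 value below would then be that of the region both isoforms share. Whether reads from the rest of the long isoform were counted is not known. Kcnq1ot1 (chr7:143213111-143296547) was counted as 1 exon of 83437 bases that lies over Kcnq1 on the opposite strand. Kcnq1 itself had at most 3 counts in any library. Meg3 (chr12:109540996-109571729) and Rian (chr12:109603945-109661716) each overlap the annotated Rtl1 on the opposite strand. Whether the counting used strand was not stated, so reads from such pairs cannot be told apart. Mirg (chr12:109734981-109749458), Miat (chr5:112213228-112228948) and Snhg11 (chr2:158375713-158386474) had no such overlap with a protein-coding gene. Of the counted transcripts, the longest open reading frame had 58 codons in Mirg, 64 in Malat1, 79 in Neat1, 83 in Rian, 89 in Snhg11, 128 in Meg3, 179 in Miat and 250 in the much longer Kcnq1ot1. The pentamer AGCCC, part of a motif linked to nuclear retention, occurred at 0.716 per kb in Malat1 to 2.61 per kb in Meg3, against a median of 1.30 per kb in 21369 protein-coding and 1.01 per kb in 10957 noncoding transcripts.

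Library totals ran from 19567186 to 33660708 counts, and Rn45s, the precursor of ribosomal RNA, took 38.7% to 42.3% of them in CFD IP, 17.1% to 19.1% in HFD IP and 6.34% to 14.2% in the inputs. The labels gave the pulldown as one of Tie2-lineage ribosomes, but the summed level of 16 endothelial markers was 39.9 to 291 CPM (counts scaled to a common library size) in the IP libraries and 41.2 to 80.1 CPM in the inputs. This sum in IP was 1.51, 1.28 and 7.01 times the input of the same animal in CFD animals 489, 555 and 556, and 2.76, 1.05 and 0.498 times in HFD animals 516, 517 and 676. A few markers can carry such a sum. Over the 14 of these markers that passed the filter, the median ratio was below input in 4 animals, namely 489, 517, 555 and 676. The endothelial marker Cldn5 had no count in 4 of the 6 IP libraries, and Tek had none in 3 of them. Cldn5 also had none in the inputs of animals 489, 555 and 556, and Tek none in those of animals 517 and 556. Of the 3 most abundant endothelial markers, Slc2a1 was below input in 2 animals, Egfl7 in 3 and Slco1a4 in 4. The summed level of 12 neuronal markers was 7837 to 13210 CPM in the IP libraries. It stood at 0.757 to 1.15 times the input of the same animal. The input of animal 676 stood apart, with 16427 genes detected against 13337 to 14749 in the other inputs. It also held 133 counts of Xist, an RNA made in females, against at most 7 in any other library, although Ddx3y from the Y chromosome had 944 counts there. Several member results are given with and without this animal, whereas the comparison lists and the correlations include it throughout.

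In input, the members differed over a wide range. CPM per kb of counted length allow levels to be compared between genes. On that scale Malat1 stood first in CFD input at 1082 ± 67.0 (SD, n = 3), followed by Meg3 at 570 ± 305 and Snhg11 at 48.4 ± 46.7. Rian at 25.3 ± 9.32, Miat at 11.7 ± 1.22 and Neat1 at 11.1 ± 4.68 came next. Mirg at 0.662 ± 0.684 and Kcnq1ot1 at 0.406 ± 0.540 were lowest (SD, n = 3 each). Snhg11 and Rian did not differ beyond their spread, nor did Miat and Neat1, nor Mirg and Kcnq1ot1. In CFD IP the order was Malat1 at 384 ± 117, Meg3 at 230 ± 69.7, Rian at 54.6 ± 23.6, Snhg11 at 22.3 ± 11.2, Miat at 3.88 ± 5.05, Neat1 at 1.52 ± 0.870, Kcnq1ot1 at 0.182 ± 0.0990 and Mirg at 0.149 ± 0.258 CPM per kb (SD, n = 3 each). Rian thus stood above Snhg11 in CFD IP and below it in CFD input, with spreads that overlapped in both fractions.

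Together the 8 members made up 0.943% to 1.29% of all counts in CFD input and 0.194% to 0.270% in CFD IP. In HFD they made up 0.815%, 1.04% and 3.02% of the input counts of animals 516, 517 and 676, and 0.368%, 0.259% and 1.11% of the IP counts. The IP share was lower than the input share in each of the 6 animals. Malat1 alone was 65.0% to 89.0% of the member counts of a library, so the summed share mostly follows Malat1. The share of Rn45s was higher in IP in all 6 animals, and it lowers the share of every other gene there. The ratios that follow use library sizes scaled by TMM (trimmed mean of M values), which holds the bulk of genes level between libraries. Each is the log2 of IP over input within 1 animal after adding 0.5 CPM, and a value below 0 means less in IP. Scaling by library total alone, which counts Rn45s in full, shifted the median of all genes by -0.51 on this log2 scale. The part of Rn45s in that shift was not tested. Malat1 and Neat1 were below input in all 6 animals by TMM. Scaling by library total lowered their ratios in every animal, so it could not have put them above input and adds no support.

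**Figure D1:**
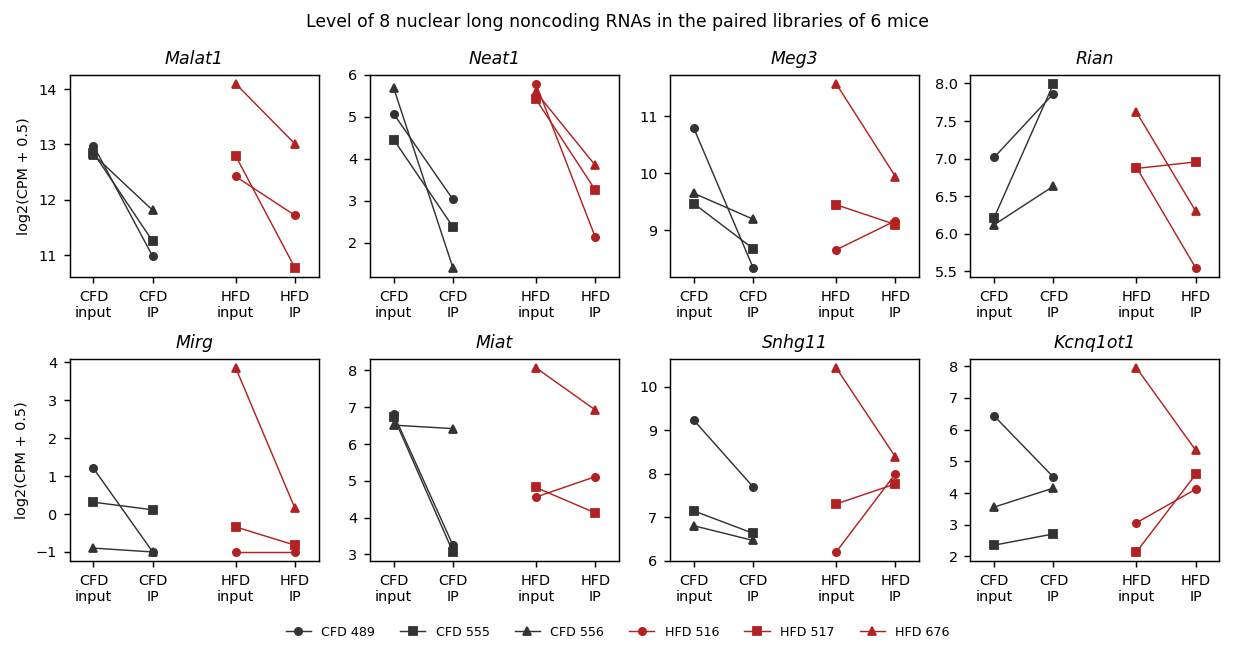
Level of each member as log2(CPM + 0.5) in input and IP, with a line joining the libraries of 1 animal (black CFD, red HFD, symbols for the animals). All 6 lines fall for Malat1 and Neat1, while those of Rian rise in CFD on this TMM scale (not for animal 556 by library total alone), and the input of animal 676 is the highest input for every member but Neat1.

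Malat1 was lower in the IP of every one of the 6 animals. Its level was 8083, 7369 and 7203 CPM in the inputs of CFD animals 489, 555 and 556, and 2013, 2432 and 3587 CPM in their IP libraries. In HFD animals 516, 517 and 676 it was 5484, 7097 and 17540 CPM in input and 3365, 1742 and 8249 CPM in IP. The IP of animal 676 exceeded every other animal's input, so that only the comparison within an animal separates the fractions. By TMM the IP level was thus 24.9%, 33.0% and 49.8% of the input level in CFD and 61.4%, 24.5% and 47.0% in HFD. By library total alone it was 14.4%, 20.6% and 24.8% in CFD and 39.8%, 18.5% and 40.05% in HFD. These are relative levels, and the amount of RNA recovered was not measured. The mean log2 ratio was -1.41 ± 0.55 (SD, n = 6), which corresponds to 37.8% of input, or -1.47 without animal 676. With 38928 to 493514 counts behind each value, counting error was small: for animal 489 the ratio of 0.249 had a 95% exact interval of 0.246 to 0.252, which covers counting error only. Malat1 still had the highest mean level per kb of the 8 members in each IP group, although in the IP of animal 517 Meg3 stood above it, at 287 against 249.5 CPM per kb. In the distribution of all 14354 ratios, Malat1 lay between percentiles 12.5 and 38.4 of its animal.

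Neat1 was the other member below input in all 6 animals, and the further below of the pair. Its level was 33.1, 21.5 and 51.0 CPM in the CFD inputs and 7.66, 4.69 and 2.13 CPM in the CFD IP libraries of animals 489, 555 and 556. In HFD it was 54.8, 42.3 and 47.7 CPM in input and 3.88, 9.05 and 13.9 CPM in IP for animals 516, 517 and 676. No IP library reached the lowest input, so the fractions did not overlap. The IP held 4.18% of the input level in animal 556 and 7.09% in animal 516, and between 21.4% and 29.1% in the other 4 animals. The lowest of these rested on 38 IP counts, with a 95% exact interval of 0.0295 to 0.0577 for the ratio of 0.0418. The mean log2 ratio was -2.66 ± 1.04 (SD, n = 6), or 15.8% of input, and -2.85 without animal 676. Neat1 lay between percentiles 1.80 and 13.1 of all ratios. Across the table, 596 of 14354 genes, or 4.15%, were also below input in all 6 animals, and since the members were chosen on this ratio nothing is read from 2 of 8 against that share.

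Meg3, which is imprinted, and Miat were below input in 5 of 6 animals by TMM, each with animal 516 as the exception, and in all 6 by library total alone. Meg3 was 1763, 708 and 803 CPM in the CFD inputs and 324, 410 and 586 CPM in the CFD IP libraries of animals 489, 555 and 556. In HFD animals 516, 517 and 676 it was 404, 699 and 3033 CPM in input and 575, 549 and 984 CPM in IP. The CFD fractions did not overlap, whereas those of HFD did. The ratio ran from 18.4% of input in animal 489 to 142% in animal 516, with a mean log2 ratio of -0.86 ± 1.04 (SD, n = 6), or -0.70 without animal 676. Miat was steady in the CFD inputs, at 111, 106 and 90.8 CPM, and uneven in the CFD IP libraries, with 9.0 and 7.88 CPM in animals 489 and 555 and 85.1 CPM in animal 556. In HFD it was 23.1, 27.7 and 268 CPM in input and 34.1, 17.0 and 121 CPM in IP for animals 516, 517 and 676. Its ratio was thus 8.09% and 7.43% of input in animals 489 and 555, 93.7% in animal 556, 148% in animal 516, 61.2% in animal 517 and 45.1% in animal 676. With an SD of 1.78 around a mean log2 ratio of -1.43 (n = 6), Miat was among the most scattered members. Its mean was -1.49 without animal 676.

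Snhg11 and Kcnq1ot1 had ratios on both sides of input. Snhg11 was 600, 141 and 111 CPM in the CFD inputs and 207, 98.4 and 87.8 CPM in the CFD IP libraries of animals 489, 555 and 556. In HFD it was 73.0, 158 and 1388 CPM in input and 256, 217 and 334 CPM in IP for animals 516, 517 and 676. The spread lay in the inputs, which differed up to the level of animal 676, while the IP libraries stayed closer together. Its ratio was 34.5%, 69.9% and 79% of input in CFD and 350%, 138% and 24.1% in HFD, with a mean log2 ratio of -0.36 ± 1.39 (SD, n = 6) that moved to -0.03 without animal 676. Kcnq1ot1, an RNA that stays at its own locus, was 85.7, 4.62 and 11.3 CPM in the CFD inputs and 22.1, 6.04 and 17.3 CPM in the CFD IP libraries. In HFD it was 7.84, 3.91 and 247 CPM in input and 16.9, 23.5 and 40.3 CPM in IP. By TMM it was above input in animals 516, 517, 555 and 556 (by library total alone in animals 516 and 517 only), at 131% to 601% of the input level, and at 25.8% and 16.3% in animals 489 and 676. Both of those animals had inputs far above the other inputs for Kcnq1ot1 and Snhg11. The mean log2 ratio of Kcnq1ot1 was -0.01 ± 1.90 (SD, n = 6), or 0.51 without animal 676.

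Rian was the member with a higher level in IP than in input throughout CFD by TMM, though not in animal 556 by library total alone. In the CFD inputs of animals 489, 555 and 556 it was 129, 73.7 and 68.9 CPM, and in their IP libraries 233, 255 and 98.7 CPM. In HFD animals 516, 517 and 676 it was 118, 116 and 196 CPM in input and 46.1, 124 and 78.2 CPM in IP. The ratio was thus 180%, 346% and 143% of input on CFD, and 39.2%, 106% and 39.8% on HFD. The mean log2 ratio was 1.05 ± 0.66 in CFD and -0.86 ± 0.82 in HFD (SD, n = 3 each), and the ratios of the diets did not overlap. By library total alone the ratio was 104%, 215% and 71.6% in CFD and 25.6%, 80.2% and 34.0% in HFD, so that the diets overlapped. The mean log2 ratio of all 6 animals turned from 0.10 by TMM to -0.53 by library total alone. Without animal 676 the TMM mean was 0.38. Of all tested genes, 4.98% had HFD ratios wholly below those of CFD and 5.0% wholly above. Rtl1, which Rian overlaps, had 334, 8 and 188 counts in the CFD IP libraries and 0, 0 and 71 in the HFD IP libraries, against 1329 to 5275 counts of Rian in the IP libraries. In the inputs Rtl1 had 191, 1 and 108 counts in CFD and 303, 3 and 538 in HFD. Animal 555, with the highest Rian ratio, had 8 counts of Rtl1 in IP beside 5275 of Rian. The part of Rtl1 reads in the Rian ratio was not tested.

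Mirg was near the limit of counting. It had 42, 21 and 1 counts in the CFD inputs of animals 489, 555 and 556 and 0, 12 and 0 counts in their IP libraries. In HFD it had 0, 8 and 392 counts in the inputs of animals 516, 517 and 676 and 0, 2 and 20 counts in IP. Only the input of animal 676 held more than 42 counts, so a ratio was available in few animals. There the IP level was 4.38% of input in animal 676 and 78.3% in animal 555. In animal 489 it was at least 11.6-fold lower in IP, taking a floor of 3 counts per library for a count of 0. Animal 517 had a ratio of 0.228 with a 95% exact interval of 0.0236 to 1.14, and animals 516 and 556 had too few counts in both fractions for a value.

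**Figure D2:**
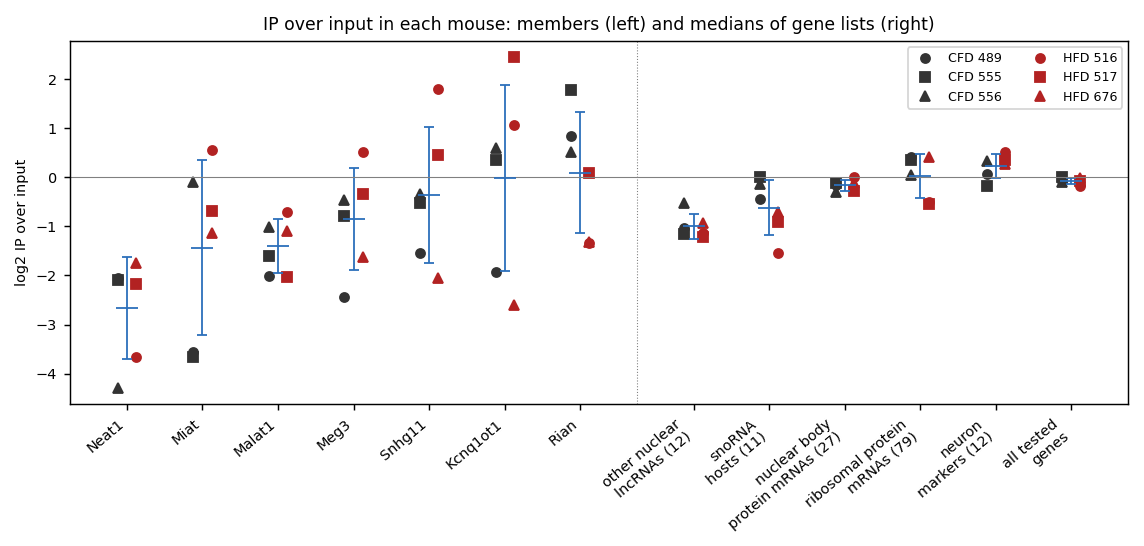
The log2 ratio of IP over input in each animal (black CFD, red HFD) for the 7 members with more than 3 counts in every library, and on the right the median of each comparison list, with the mean and SD of the 6 animals in blue. Malat1 and Neat1 lie wholly below 0, and the median of 12 other nuclear noncoding RNAs lies between -1.22 and -0.53.

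Other gene lists give the scale for these ratios. The median over the 7 members with enough counts was -2.01, -0.79 and -0.34 in CFD animals 489, 555 and 556 and 0.51, -0.35 and -1.62 in HFD animals 516, 517 and 676, a mean of -0.77 ± 0.92 (SD, n = 6). The same mean was -0.08 ± 0.06 over all tested genes. It was 0.03 ± 0.45 over the messenger RNAs of 79 ribosomal proteins and 0.23 ± 0.24 over 12 neuronal markers. By library total alone the last 2 means were -0.59 and -0.39, beside -0.58 for all tested genes. The members stood below the ribosomal protein genes in 4 animals, by 2.42 in animal 489, 2.04 in animal 676, 1.14 in animal 555 and 0.38 in animal 556 on the log2 scale, and above them by 0.20 in animal 517 and 1.02 in animal 516 (n = 1 pair each). Where other nuclear RNAs were concerned, the median of 12 further noncoding RNAs known from the nucleus, such as Tug1 and Sox2ot, was below 0 in all 6 animals, at -1.0 ± 0.25 (SD, n = 6). Of the most abundant of them, Tug1 averaged -0.41 ± 0.45, Sox2ot -0.80 ± 0.96 and the imprinted Peg13 0.77 ± 0.69 (SD, n = 6 each). Peg13 was above input in all 6 animals by TMM, in 5 with DESeq2's size factors (RLE scaling) and in 2 by library total alone.

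The 11 tested hosts of snoRNAs had a median of -0.62 ± 0.56 (SD, n = 6). Gas5, a host whose spliced RNA is known to be bound by ribosomes and then decayed, was below input in all 6 animals at -0.80 ± 0.27, while Snhg1 averaged 0.25 ± 1.45 (SD, n = 6 each), or -0.31 by library total alone. The messenger RNAs of 27 nuclear body proteins, which are translated in the cytoplasm although their products work beside Malat1 and Neat1, had a median of -0.16 ± 0.11 (SD, n = 6). Srrm2, a speckle protein, averaged 0.46 ± 0.33 (SD, n = 6) and was above input in every animal by TMM, but in 3 by library total alone, where it averaged -0.16. The protein-coding neighbours of the imprinted members had a median of 0.51 ± 0.26, with Begain at 1.37 ± 1.09 and Dlk1 at 0.15 ± 0.77 (SD, n = 6 each), or 0.75 and -0.46 by library total alone. In CFD IP the neuronal sum was 0.757 to 0.821 times that of the input, and in HFD IP 1.03 to 1.15 times. The most abundant neuronal marker, Snap25, averaged 6430 CPM and was below input in 5 animals by TMM. By contrast, the median of the 12 neuronal markers was below input in animal 555 alone by TMM, though in 5 animals by library total alone. In bulk samples such as these, fewer cells of a type and less RNA per cell cannot be told apart, and the part of cell makeup in the member ratios was not tested.

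**Figure D3:**
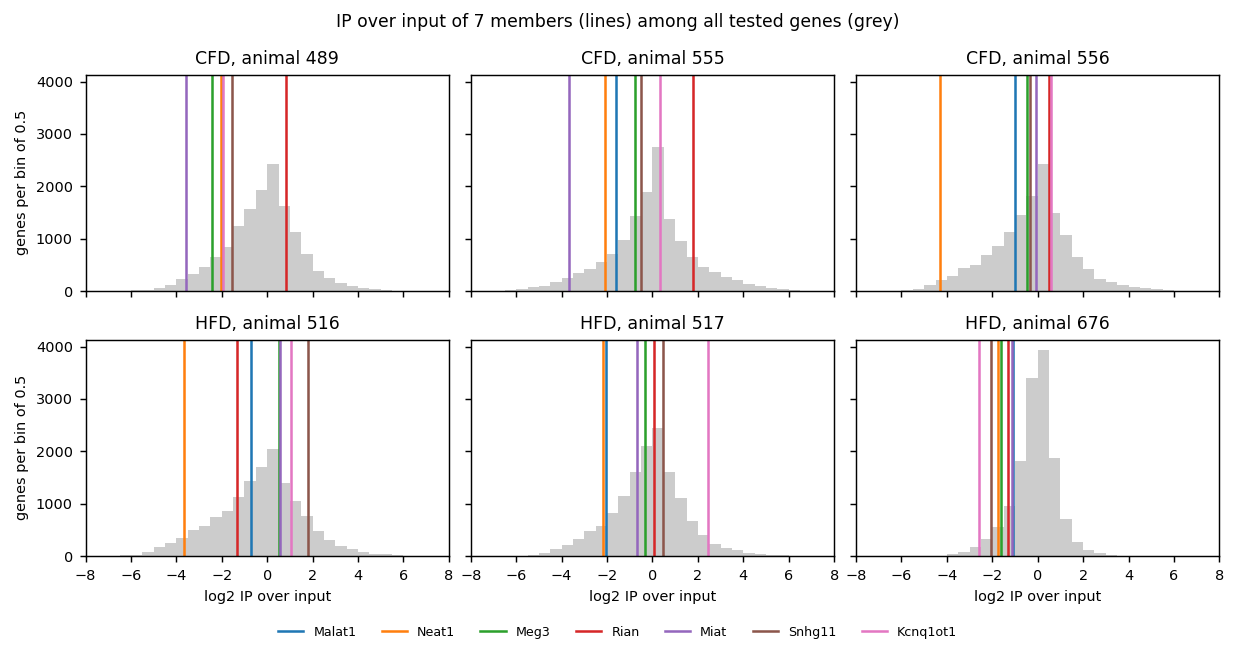
Histograms of the log2 ratio of IP over input for all 14354 tested genes in each animal, in bins of 0.5, with a coloured line for each of 7 members. Neat1 lies in the lower tail of every animal, between percentiles 1.80 and 13.1, while all 7 members lie left of the centre only in animal 676.

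The width of the distribution also differed between animals. The SD of the log2 ratio over all tested genes was 0.954 in animal 676 and 1.62 to 1.89 in the other 5 animals. In animal 676 all 7 members were below input, between percentiles 1.77 and 13.5. In animal 517 they ran from percentile 11.2 for Neat1 to 95.3 for Kcnq1ot1. A ratio of the same size thus held a different rank in different animals.

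For completeness, the edgeR fit over both diets gave IP against input as a log2 fold change of -1.33 (SE 0.298) for Malat1 and -2.65 (SE 0.553) for Neat1. These 2 of the 8 members had an edgeR adjusted p under 0.1, beside 337 of 14354 genes, or 2.35%, and since this is the contrast that chose the members nothing is read from it. In CFD alone and in HFD alone this edgeR fit, which had no animal block, called no member at that threshold, beside 0.188% and 0.0139% of all genes. With no member called, 4 members had an unadjusted edgeR p under 0.05 in CFD (1 higher, Rian, and 3 lower), beside 11.8% of all genes, and 2 in HFD, beside 6.51%. DESeq2 called 2 members in CFD (Malat1 and Neat1), beside 6.03% of the 13535 genes to which it gave an adjusted p. In HFD it gave an adjusted p to no more than 1274 genes, 3 members among them, and called Malat1, beside 12.6%. An edgeR fit with the animal as a block, since both fractions came from 1 mouse, called 3 members in CFD, beside 0.968% of all genes. It called 1 in HFD, beside 0.167%, and 4 over both diets (Malat1, Neat1, Meg3 and Miat), beside 3.14%, all lower in IP. As before, nothing is read from these member counts.

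The diets were compared in the same fit. HFD IP against CFD IP is not the ratio that chose the members, although it uses the IP counts that enter that ratio. The interaction given further below is the difference of that ratio between the diets. In the pulldown, the question was whether the ribosome-bound RNA of obese mice carried more or less of these transcripts. No member had an edgeR adjusted p under 0.1 between HFD IP and CFD IP, beside 8 of 14354 genes, or 0.0557%. An unadjusted edgeR p under 0.05 was held by 1565 genes, or 10.9%, and by 1 of the 8 members, a share near that background. This member, Rian, had a log2 fold change of -1.24 (SE 0.439), an edgeR adjusted p of 0.353 and an unadjusted p of 0.00965. Its mean was 195 ± 84.5 CPM in CFD IP and 82.6 ± 38.9 CPM in HFD IP (SD, n = 3 each), and animals 517 and 556 made the groups overlap. Its fold change was negative in every alternative, from -1.65 to -0.98, and its adjusted p ran from 0.0995 with DESeq2 to 0.589 without animal 516. DESeq2 called Rian alone among the 7 members to which it gave an adjusted p, beside 770 genes, or 5.79%, where edgeR had called 8.

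The other 7 members had positive fitted fold changes in HFD IP, none of them called by edgeR. Malat1 had a log2 fold change of 0.73 (SE 0.416, edgeR adjusted p of 0.510), which turned to -0.068 without animal 676. Neat1 had 0.89 (SE 0.744, edgeR adjusted p of 0.664) and Meg3 0.68 (SE 0.502, edgeR adjusted p of 0.621). Snhg11 was the 1 member whose IP libraries did not overlap between diets, at 87.8 to 207 CPM in CFD and 217 to 334 CPM in HFD. Its log2 fold change was 1.04 (SE 0.717, edgeR adjusted p of 0.593). Of all tested genes, 5.94% lay wholly above CFD in HFD IP and 4.66% wholly below. Miat, Kcnq1ot1 and Mirg had fold changes of 0.76 (SE 0.872), 0.83 (SE 1.08) and 0.21 (SE 2.48). An interval of 2 SE on either side for Malat1 ran from -0.10 to 1.57, so a doubling in HFD IP lay within it, as did no change.

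**Figure D4:**
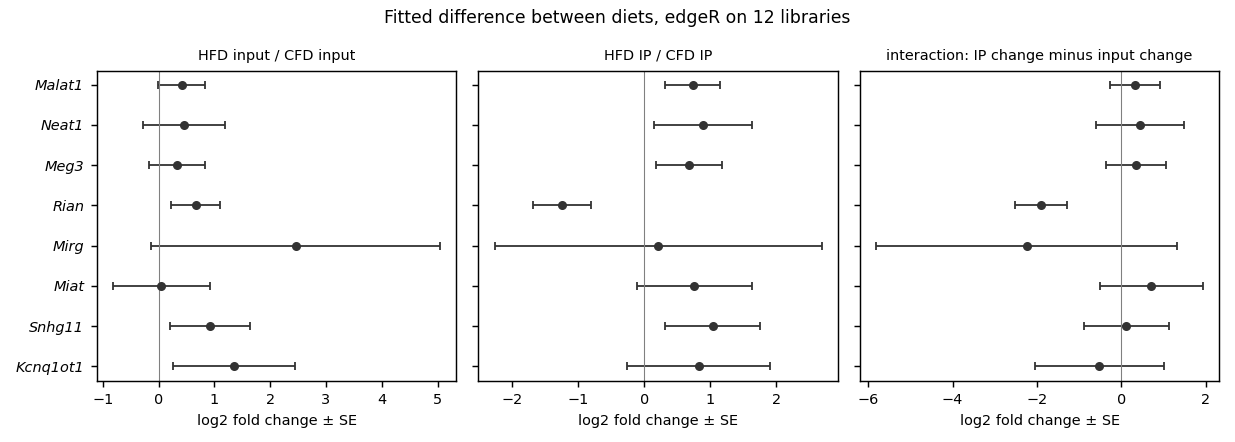
Fitted log2 fold change of each member with its SE between diets in input (left) and in IP (middle), and the interaction of diet and fraction (right), each from the edgeR fit to 12 libraries. Only Rian lies more than 2 SE from 0, in IP at -1.24 and in the interaction at -1.91.

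In the inputs, where diet was compared in the whole white matter, no member was called by edgeR, and none of the 14354 genes was (0%). No member had an unadjusted edgeR p under 0.05 there, and neither DESeq2 nor limma with the animal as a block called a member. Across all genes, 157 were higher and 135 lower in HFD input at an unadjusted edgeR p under 0.05 (2.03% in all), and DESeq2 called 31 genes, or 0.225%. All 8 members had fitted fold changes above 0, from 0.05 (SE 0.865) for Miat to 2.46 (SE 2.59) for Mirg. Without animal 676 the fold change was -0.26 for Malat1, -0.99 for Meg3, -2.54 for Mirg, -2.02 for Miat, -1.30 for Snhg11 and -2.53 for Kcnq1ot1. The direction in the inputs thus rested on that library for these 6 members, and Neat1 and Rian alone kept theirs. Rian had a log2 fold change of 0.66 (SE 0.434) in input, opposite in sign to its value in IP. No member's inputs separated the diets, beside 6.05% of genes wholly above and 4.33% wholly below.

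The interaction asks whether IP over input differed between the diets. By edgeR adjusted p, no member was called, nor was any other gene (0%), while 452 genes with a positive and 318 with a negative interaction had an unadjusted p under 0.05 (5.36% in all), and DESeq2 called 121 genes, or 0.877%, but no member. Rian had the strongest interaction of the members by unadjusted p, at a log2 value of -1.91 (SE 0.617), an edgeR adjusted p of 0.829 and an unadjusted p of 0.00531. It ranked 81 of 14354 genes by p. Its adjusted p over the alternatives ran from 0.200 with DESeq2 to 1 with the block, and its value from -2.45 to -1.54. The ratio behind this value is the one the members were chosen by, so Rian is given as the member with the lowest p and not as a finding on its own, and the fitted interaction of Mirg was larger in size. The other members had interactions of 0.32 (SE 0.585) for Malat1, 0.43 (SE 1.04) for Neat1, 0.34 (SE 0.706) for Meg3, 0.71 (SE 1.23) for Miat, 0.11 (SE 1.003) for Snhg11, -0.52 (SE 1.52) for Kcnq1ot1 and -2.25 (SE 3.57) for Mirg. All 7 lay within 1 SE of 0.

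Small RNAs that lie inside the members were listed on rows of their own. Many snoRNAs guide methylation of other RNAs and are known from the nucleolus, but targets of those in Rian were not examined here. Rian holds 7 snoRNA rows with counts. Their sum was 267, 115 and 129 counts in the CFD inputs of animals 489, 555 and 556, and 21, 63 and 7 counts in the CFD IP libraries. In HFD it was 106, 142 and 1013 counts in the inputs of animals 516, 517 and 676, and 138, 314 and 331 counts in the IP libraries. In CFD the snoRNAs of Rian were thus lower in IP in every animal, while the spliced host was higher in IP in every animal by TMM, with the exception of animal 556 by library total alone. In HFD the snoRNA counts were higher in IP than in input in animals 516 and 517. In animal 517 this came from 1 row, AF357425, with 243 counts in IP and 31 in input, while AF357359 had 71 in IP and 110 in input. The snoRNA AF357359 (chr12:109650709-109650738) supplied most of the CFD counts, with 168, 109 and 102 in the inputs and 19, 63 and 7 in the IP libraries. These are raw counts of short RNAs in libraries of long RNA, and a short row can also collect intron reads of its host.

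MicroRNA rows gave a less regular picture. Inside Rian, Mir1188 had 119 counts in the IP of animal 489 and 4 in its input, and 135 in the IP of animal 517 and 7 in its input. It went the other way in animals 516 and 676, with 22 and 8 counts in IP and 73 and 150 in input, and had at most 2 counts in any library of animals 555 and 556. Inside Mirg, Mir154 had 55 and 65 counts in the IP libraries of animals 489 and 556, where Mirg itself had 0 in IP, and no count in the 3 CFD inputs. The 2 microRNA rows inside Meg3, Mir770 and Mir1906-1, had no count in any of the 12 libraries. Counts of Mir154 and of Mirg thus did not go together in the CFD libraries.

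Across the 12 libraries, the members also differed in how their levels moved together. On log2(CPM + 0.5), Pearson's r was 0.82 between Malat1 and Meg3, 0.84 between Malat1 and Miat, 0.88 between Snhg11 and Kcnq1ot1 and 0.87 between Meg3 and Mirg (n = 12 libraries, 6 animals with 2 each). Rian went with none of them as closely, from -0.39 with Miat to 0.35 with Mirg, although Meg3, Rian and Mirg lie at 1 locus. Of all 14346 other genes tested, those most like the mean pattern of the members were 4930455C13Rik (r = 0.95), Gm1653 (r = 0.95) and 4930428E07Rik (r = 0.95), each with a mean under 1 CPM. The gene most like a single member was Utp18 for Malat1 (r = 0.90), Ybx1 for Neat1 (r = 0.95), Nipbl for Miat (r = 0.88) and Msantd1 for Rian (r = 0.88). The points share animals and the input of animal 676, and the best of so many genes is high by selection, so the values describe these libraries only.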

How the data were processed

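White matter of 6 Tie2-Cre:RiboTag mice, 3 per diet, gave an IP and an input library each, and groups and animals were taken from the labels. The submitters' processing notes name STAR, HTSeq and mm10, with strand and overlap settings not given in the sources used here, and labels and methods name different library kits, so removal of ribosomal RNA is uncertain. The authors deposited 1 table per gene symbol with whole counts that were not normalized. The authors also deposited FPKM values and a scaled signal that was not used. The FPKM values served only to recover a length for each gene, which was taken as its counted length. The log2 fold changes and p-values in the deposited table are the authors' own comparisons and were not used.

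The counts were fitted with edgeR 4.0.16 in R 4.3.3. filterByExpr (minimum count 10, minimum total 15) kept 14354 of 24060 genes, sizes were scaled by TMM, and 1 model of 4 group means was fitted to all 12 libraries with glmQLFit and tested with glmQLFTest. Adjustment was by Benjamini-Hochberg across the 14354 genes, and genes under 0.1, the threshold of the study, were called. The common biological coefficient of variation was 101%. A pair ratio is log2 of TMM-scaled CPM plus 0.5. Intervals are exact at 95%, with a floor of 3 counts for a count of 0. No molecular identifiers were used, so reads are not independent molecules and both cover counting error only. DESeq2 1.42.0 served as an alternative. The animal was a block in limma 3.58.1 for the diet comparisons, and in edgeR for IP against input and the interaction. IP and input of 1 number came from 1 mouse, and their deviations from the group means correlated at 0.0073 to 0.156. The edgeR fit was tested on simulated counts with a spread capped below the common one of these data. Libraries there were independent, and changes were placed in better-counted genes only. That test thus does not show how the fit performs at the spread of these data.

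The members and all comparison lists were chosen with earlier results of these data known. Named genes were the 8 members, the 3 most abundant of each list, the genes most correlated with the members, Rn45s, and small RNAs inside members. Some genes within this rule are left unprinted. Lists of astrocyte, oligodendrocyte, pericyte, microglia and OPC markers served only as values beside the ratios. Xist, Ddx3y, Rtl1, Kcnq1, Tek and Cldn5 were named after their values were seen. Coordinates and sequences are from RefSeq on GRCm38.p6, and the AGCCC background is the longest GENCODE transcript of each gene.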

Additional observations from a re-analysis of the deposited data

How the results depend on the processing

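The median ratio of the 7 members kept its sign under every alternative, from -1.02 to -0.52 with 1 animal left out. Scaling by library total alone shifted the median of all genes by -0.51 on the log2 scale and put Malat1 at -2.03 and Rian, at 0.10 by TMM, at -0.53. In HFD IP against CFD IP (8 genes called, no member), 219 genes were called with no filter, 770 and 1 member (Rian) with DESeq2, 5 without Rn45s and Lars2, 5 with the replicate block and 1 to 20 with 1 animal left out, the 1 without animal 517 and the 20 without animal 489. HFD input against CFD input gave 3 genes with no filter, 31 with DESeq2 and 0 to 1 with 1 animal left out, and the interaction 44, 121 and 0 to 1. IP against input in CFD gave 312 genes with no filter, 816 with DESeq2, 139 with the replicate block and 2 to 52 with 1 animal left out, with 4, 2, 3 and 0 to 1 members. In HFD it gave 79, 160, 24 and 0 to 35 genes, with 1 member under each of the first 3, and 0 genes without Rn45s and Lars2. DESeq2 gave no adjusted p to 13080 genes in HFD. Over both diets IP against input gave 730, 996, 451 and 7 to 430 genes (no filter, DESeq2, replicate block, 1 animal left out), and 6 members with no filter, 4 with the replicate block and 0 to 2 with 1 animal left out, 0 without animal 516 or 556.

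Of 264 alternatives to the diet tests of the members, 27 turned the sign of a fold change, none of them called, and the cause was not tested. With 1 animal left out, those whose sign turned ran as follows. In IP, Malat1 ran from -0.068 to 1.12, Mirg from -2.39 to 5.65 (-0.38 and -0.36 without animals 489 and 556) and Miat from -0.41 to 2.77. In input, Malat1 ran from -0.26 to 0.69, Meg3 from -0.99 to 0.84, Mirg from -2.54 to 3.56, Miat from -2.02 to 0.51, Snhg11 from -1.30 to 2.07 and Kcnq1ot1 from -2.53 to 3.41, each lowest without animal 676, and the replicate block gave -0.12 (Meg3), -0.14 (Mirg) and -0.95 (Miat). In the interaction, Neat1 ran from -0.28 to 0.97, Meg3 from -0.37 to 1.34, Mirg from -3.94 to 3.28, Snhg11 from -0.56 to 2.15 and Kcnq1ot1 from -2.22 to 2.94, and the replicate block gave 0.34 (Mirg) and 0.82 (Kcnq1ot1). The block changed no member's call in the diet tests. Depth limited only Mirg.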

Other observations

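Among the messenger RNAs of nuclear body proteins, Qk, which encodes an RNA-binding protein of oligodendrocytes and astrocytes, was below input in all 6 animals at a mean log2 ratio of -0.68 ± 0.29 (SD, n = 6). Matr3, a nuclear matrix protein gene, averaged -0.33 ± 0.65 (SD, n = 6). The erythroid enzyme gene Alas2 was below input in all 6 animals at -2.68 ± 1.66 (SD, n = 6). It was near the limit of counting in IP. The summed level of 7 blood markers, Alas2 among them, was 0.242 to 0.561 CPM in CFD IP and 0.033 to 3.54 CPM in HFD IP. The 0.5 CPM added to each level thus limits how low its ratio can go, and its size is not compared with that of Neat1.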
